A study of Mus musculus with 11 samples.

Results

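Galectins are soluble proteins that bind beta-galactoside sugars on glycoproteins, and 6 of their genes in mouse JB6 cells, Lgals1, Lgals3, Lgals4, Lgals7, Lgals8 and Lgals9, are described here across attached and anchorage-independent growth. The members were the 8 probe sets, groups of short array probes for a transcript, whose annotation named exactly one of these symbols, out of 20380 probe sets that named a single gene. They stood for 6 of 12393 genes, each read from its probe set with the highest mean signal. The members were chosen by their family and by the measured signal of Lgals3, which was low in RT101 cells relative to bFGF-JB6 cells. Every level of RT101 set against bFGF-JB6 cells in the same growth state is therefore given as a description, with no test. Changes between colonies and monolayers of the same cells were tested, and so was the difference of that change between the lines, except for Lgals3. The members and gene lists were chosen with earlier results of these data known, so these p-values are not fully independent of the choice.

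Total RNA was measured on Affymetrix oligonucleotide arrays, 11 in all. RT101 is a tumor variant of the line and was left untreated; it was sampled as soft-agar colonies of day 7 (3 arrays) and as attached monolayer (2 arrays). The parental clone 41-5A was treated with bFGF, the basic fibroblast growth factor, and is called bFGF-JB6; it was sampled as day 7 colonies at 10 ng/ml (3 arrays) and as monolayer (3 arrays), for which the labels give no separate dose or time. All groups derive from JB6, a line known as mouse epidermal cells, grown with fetal bovine serum. RT101 and the bFGF-treated cells differ in both line and growth factor, and the JB6 cells are a single clone, so line, clone and treatment cannot be told apart in any RT101 against bFGF-JB6 value. Whether replicate arrays stand for separate cultures is not stated, and the p-values measure only how far these samples scatter, which can be technical.

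In the family, prototype galectins such as galectin-1 and galectin-7 carry a single sugar-binding domain and pair up, the tandem-repeat galectins 4, 8 and 9 join a pair of such domains by a linker, and galectin-3 alone has its domain attached to a proline- and glycine-rich tail through which it forms oligomers. They leave the cell without a signal peptide, crosslink integrins, laminins, fibronectin and growth factor receptors at the surface, and inside the cell they bind sugars exposed on damaged lysosomes. In skin, galectin-7 is known from stratified epidermis and galectin-3 from keratinocytes and macrophages, and galectin-9 is known as an interferon-inducible gene.

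Values are log2 signals made with RMA, which corrects background and brings the arrays to a common distribution; a difference of 1 is 2-fold, and signals lie between 1.78 and 14.1 here. Array medians ran from 5.82 to 5.95 and lower quartiles from 3.78 to 3.91, and folds that reach down to that quartile are compressed. Within a group, arrays correlated at 0.989 to 0.998. The 3' minus 5' difference of the Gapdh control probe sets was 0.35 on bFGF-JB6 colonies replicate 3 and 0.19 on bFGF-JB6 monolayer replicate 1, while the other arrays had -0.08 to -0.01. Of 11 keratinocyte markers measured, 7 in RT101 colonies, 7 in RT101 monolayers, 6 in bFGF-JB6 colonies and 6 in bFGF-JB6 monolayers had means at or below 4.05, the lower quartile of gene signals, among them Krt14, Trp63 and Cdh1 in every group. Krt5, Krt15 and Sfn stood above it in every group at means of 4.15 to 5.18, and Krt10 averaged 5.24 in RT101 colonies, 5.08 in RT101 monolayers, 7.35 in bFGF-JB6 colonies and 6.81 in bFGF-JB6 monolayers. The fibroblast markers Vim, S100a4 and Col1a2 had group means of 10.89 or more in every group, while Thy1 (3.43 to 3.67) and Lum (2.99 to 3.14) lay below the quartile in every group and Dcn was at 4.51 in RT101 monolayers and 10.63 in bFGF-JB6 monolayers. Of the 10 fibroblast markers, 6 rose and none fell in RT101 colonies, where 17.0% of all genes rose and 15.4% fell. In bFGF-JB6 colonies 4 rose and 2 fell, where 14.1% of all genes rose and 15.3% fell. The part of such marker changes in the results on galectins was not tested. Keratinocyte markers were thus mixed, with the defining genes Krt14, Trp63 and Cdh1 low in these RNA samples.

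The promoter windows of the genes on which the results turn are shown first, because Lgals9 and Lgals3bp are set beside interferon genes below and Lgals3 has the widest range of the members. Each runs from 250 bases before to 50 bases after the transcription start (RefSeq, GRCm38.p6), written 5′ to 3′ on the gene's strand; 5 of the 6 galectins had such an entry, and Lgals1 had none. Capitals mark matches on either strand to the core of the interferon-stimulated response element, spelled GAAA, any 2 bases, GAAA, or to GGGCGG, the core of the GC box, a motif added after the values were seen.
Lgals9 (chr11:78984875-78985174, minus strand): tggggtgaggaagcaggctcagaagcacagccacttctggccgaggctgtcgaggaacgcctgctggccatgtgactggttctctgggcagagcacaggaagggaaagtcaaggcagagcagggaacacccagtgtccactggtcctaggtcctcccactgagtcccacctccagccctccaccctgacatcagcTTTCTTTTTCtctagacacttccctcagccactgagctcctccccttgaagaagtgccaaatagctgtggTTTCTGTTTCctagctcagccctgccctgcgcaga
Lgals3bp (chr11:118401910-118402209, minus strand): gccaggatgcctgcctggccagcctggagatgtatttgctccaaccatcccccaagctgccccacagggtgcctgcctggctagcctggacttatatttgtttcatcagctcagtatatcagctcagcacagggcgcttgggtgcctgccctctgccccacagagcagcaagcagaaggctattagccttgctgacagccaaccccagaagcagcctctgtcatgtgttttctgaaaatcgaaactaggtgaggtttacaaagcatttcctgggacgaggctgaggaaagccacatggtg
Lgals3 (chr14:47373610-47373909, plus strand): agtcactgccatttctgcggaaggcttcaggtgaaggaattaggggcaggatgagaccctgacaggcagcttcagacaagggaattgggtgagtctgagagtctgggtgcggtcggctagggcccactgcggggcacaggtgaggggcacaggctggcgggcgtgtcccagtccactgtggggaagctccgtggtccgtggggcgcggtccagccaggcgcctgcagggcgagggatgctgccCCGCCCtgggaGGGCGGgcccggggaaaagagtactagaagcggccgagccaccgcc
The Lgals9 window held 2 matches to the interferon element core, both on the opposite strand and so printed as its reverse complement, beginning 55 bases before the start and 16 bases after it. That motif occurred in 3.44% of 32851 promoter windows of 27025 genes, and in none of the windows of Lgals3, Lgals4, Lgals7 and Lgals8. The Lgals3 window held 2 matches to GGGCGG next to the start, a motif found in 35.7% of all windows. Matches of the motifs did not overlap each other. Lgals3bp encodes a secreted glycoprotein that binds galectins and is not itself a galectin; its window matched neither motif. These are matches of letters and are not shown to be bound.

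**Figure D1:**
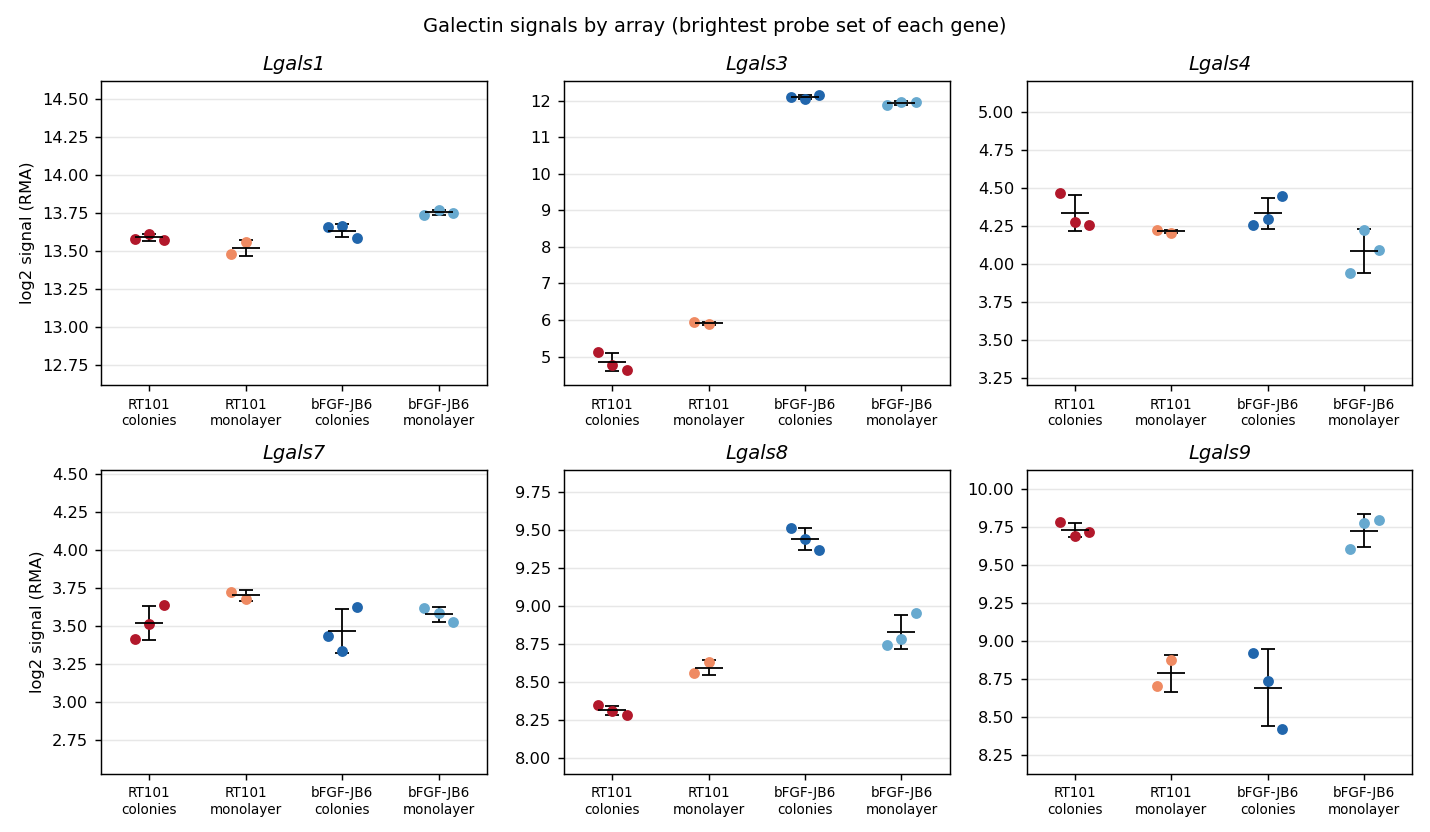
Log2 signal (RMA) of the 6 galectins on every array, with points for arrays and bars for the mean and SD of each group (RT101 colonies, n = 3; RT101 monolayer, n = 2; bFGF-JB6 colonies, n = 3; bFGF-JB6 monolayer, n = 3); each panel has its own vertical axis. Lgals3 lay between 4.64 and 5.93 on the RT101 arrays and between 11.87 and 12.16 on the bFGF-JB6 arrays, and Lgals9 was high in RT101 colonies and bFGF-JB6 monolayers.

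Lgals3 (chr14:47373860-47386167), the gene of galectin-3, was the galectin with the widest range. Its signals were 5.12, 4.78 and 4.64 in RT101 colonies and 5.93 and 5.88 in RT101 monolayers. They were 12.10, 12.04 and 12.16 in bFGF-JB6 colonies and 11.87, 11.96 and 11.95 in bFGF-JB6 monolayers. Every RT101 array lay far below every bFGF-JB6 array, in monolayers and in colonies. RT101 minus bFGF-JB6 was -7.25 in colonies (a 153-fold lower signal) and -6.02 in monolayers (65.0-fold lower). These are folds of signal, and with RT101 this low on the scale they may understate the fold in transcript. A difference of -4 or beyond was found for 38 genes in colonies (0.307% of 12393) and for 44 in monolayers (0.355%). Only S100a8, a calcium-binding protein gene picked out here after its values were seen, had a more negative difference in colonies (-8.12), while 10 genes did in monolayers. The RT101 signal stood above the lower quartile of the arrays, and RMA gives no detection calls, so whether transcript remained is not known.

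Within RT101, Lgals3 fell further in colonies. Its mean was 4.84 ± 0.25 in RT101 colonies (SD, n = 3) and 5.91 ± 0.03 in RT101 monolayers (SD, n = 2), a log2 change of -1.06 (SE 0.12, limma adjusted p = 1.27e-05), or 0.478 of the monolayer signal. All 3 colony arrays lay below both monolayer arrays. The low RT101 signal had helped to choose Lgals3, so this p is not fully independent of that choice. In bFGF-JB6 cells the change was 0.17 (95% interval -0.07 to 0.40, adjusted p = 0.286), although the 3 colony arrays lay just above the 3 monolayer arrays; without both arrays of raised 3' signal it was 0.11. The order of the group means was bFGF-JB6 colonies, bFGF-JB6 monolayer, RT101 monolayer and RT101 colonies. RT101 minus bFGF-JB6 for the colony change, -1.23, was not tested, because Lgals3 had been chosen for its level in RT101.

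Galectin-3 is also known as the macrophage antigen Mac-2, and markers of macrophages were read beside it. In a bulk sample, fewer cells of a type and less RNA per cell cannot be told apart. The summed signal of the 12 macrophage markers measured was 8.51 to 8.60 (log2) in RT101 colonies, 8.32 to 8.33 in RT101 monolayers, 9.75 to 9.84 in bFGF-JB6 colonies and 9.32 to 9.34 in bFGF-JB6 monolayers. The largest terms of that sum in bFGF-JB6 cells were Cd14, an endotoxin co-receptor, and Cd68, a lysosomal glycoprotein, whose mean was 3.54 in RT101 colonies and 8.31 in bFGF-JB6 colonies. Lyz2, a lysozyme gene of the same list, went the other way, with 5.81 in RT101 colonies and 4.69 in bFGF-JB6 colonies, and 5.18 in RT101 monolayers and 4.34 in bFGF-JB6 monolayers. The defining leukocyte gene Ptprc stayed at group means of 2.34 to 2.53 and the macrophage gene Adgre1 at 3.02 to 3.31, near the bottom of the scale in all 4 groups. The part of these markers in the level of Lgals3 was not tested.

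**Figure D2:**
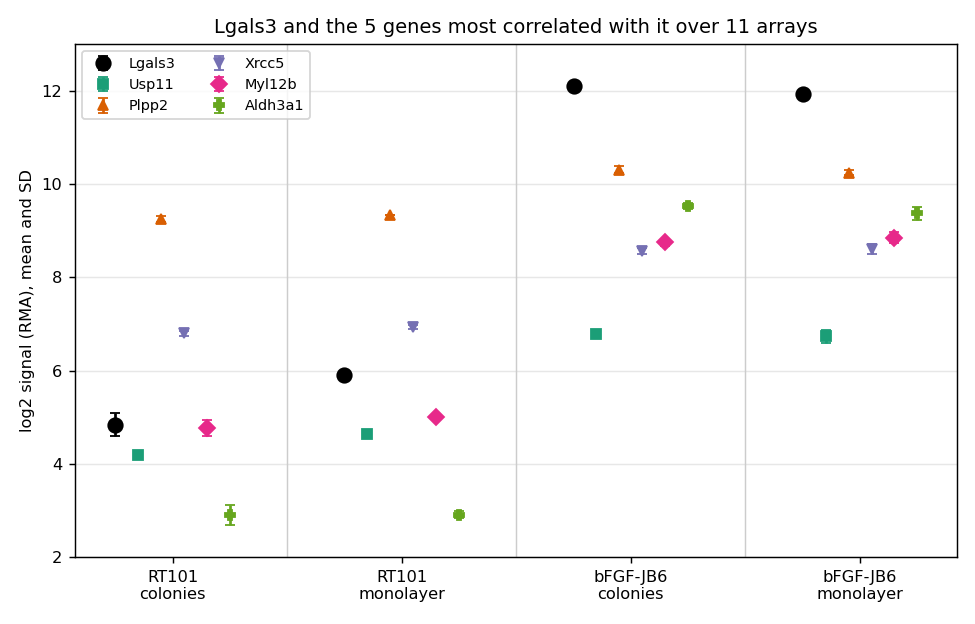
Mean log2 signal with SD (RT101 monolayer, n = 2; other groups, n = 3) of Lgals3 and of the 5 genes with the highest Pearson r to it over the 11 arrays. All 6 genes were higher in both bFGF-JB6 groups than in both RT101 groups, with gaps of unequal size; signals of different probe sets are not comparable in level.

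The genes whose signals most resembled that of Lgals3 over the 11 arrays were Usp11, a deubiquitinase (r = 0.998), Plpp2, a lipid phosphatase (r = 0.996), Xrcc5, the Ku80 subunit of DNA end joining (r = 0.995), Myl12b, a myosin regulatory light chain (r = 0.995), and Aldh3a1, an aldehyde dehydrogenase (r = 0.994). These correlations describe mainly the gap between the lines and carry no test. The size of that gap was not alike: Aldh3a1 averaged 2.91 in RT101 colonies and 9.53 in bFGF-JB6 colonies, whereas Plpp2 averaged 9.25 in RT101 colonies and 10.31 in bFGF-JB6 colonies. None of the other 5 galectins was among the genes closest to Lgals3; Lgals8 reached r = 0.842 with it and Lgals9 -0.216.

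The tandem-repeat galectin Lgals9 moved in opposite directions in the colonies of the lines. Lgals8, of the same type, rose in bFGF-JB6 colonies, while its small fall in RT101 colonies was not stable, as given below. In RT101 colonies 3 of the 6 galectins passed an adjusted p of 0.05 (1 up, 2 down, Lgals3 being one of those down), where 32.4% of all genes passed, and in bFGF-JB6 colonies 2 of 6 passed (1 up, 1 down), where 29.4% did. For the colony change of RT101 minus that of bFGF-JB6, 2 of the 5 galectins tested passed (1 up, 1 down), against 27.7% of all genes, 15.0% up and 12.7% down. With so few genes these shares are not set apart from those of all genes. The median log2 change of the 6 galectins was -0.06 in RT101 colonies and 0.03 in bFGF-JB6 colonies, beside -0.01 and 0.03 over all genes.

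Lgals9 (chr11:78962979-78984924), the gene of galectin-9, rose in RT101 colonies and fell in bFGF-JB6 colonies. Its signals were 9.78, 9.69 and 9.72 in RT101 colonies, against 8.70 and 8.87 in RT101 monolayers. In bFGF-JB6 cells they were 8.92, 8.73 and 8.42 in colonies, against 9.60, 9.78 and 9.79 in monolayers. In neither line did colony and monolayer arrays overlap. The change was 1.92-fold in RT101 (log2 0.94, SE 0.13, limma adjusted p = 7.00e-05) and 0.488-fold in bFGF-JB6 (log2 -1.03, SE 0.12, adjusted p = 1.50e-05). The changes differed between the lines by 1.98 on the log2 scale (SE 0.17, adjusted p = 1.64e-06). The lowest bFGF-JB6 colony value came from the array with the highest 3' control signal; without both arrays of raised 3' signal the bFGF-JB6 change was -0.96 (adjusted p = 3.58e-05).

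The 4 groups of Lgals9 formed 2 levels. RT101 colonies (9.73 ± 0.05, SD, n = 3) and bFGF-JB6 monolayers (9.72 ± 0.11, SD, n = 3) did not differ beyond their spread, nor did RT101 monolayers (8.79 ± 0.12, SD, n = 2) and bFGF-JB6 colonies (8.69 ± 0.25, SD, n = 3). RT101 minus bFGF-JB6 was therefore 1.04 in colonies and -0.94 in monolayers, with no overlap of arrays in either state. The genes most like Lgals9 over the arrays were Akr1b8, an aldo-keto reductase (r = 0.971), Dhrs1, a short-chain dehydrogenase (r = 0.966), and Nsf, an ATPase of membrane fusion (r = 0.963).

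Lgals8 (chr13:12439402-12464977), the gene of galectin-8, which binds integrins and damaged vesicles, rose in bFGF-JB6 colonies. On its brighter probe set the signals were 8.35, 8.31 and 8.28 in RT101 colonies, against 8.56 and 8.63 in RT101 monolayers. In bFGF-JB6 cells they were 9.51, 9.44 and 9.37 in colonies, against 8.74, 8.79 and 8.95 in monolayers, and no colony array overlapped with the monolayers of its line. The bFGF-JB6 change was 1.53-fold (log2 0.61, SE 0.08, limma adjusted p = 7.98e-05). The RT101 change was -0.28 (SE 0.09, adjusted p = 0.0315) and was not stable: it missed the threshold without any single one of the 5 RT101 arrays (adjusted p 0.0565 to 0.168), with the mean of both probe sets (-0.22, adjusted p = 0.188) and with the titles' replicate numbers as a block (adjusted p = 0.0595).

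The second Lgals8 probe set gave 0.64 in bFGF-JB6 colonies (adjusted p = 0.00724 over 20380 probe sets) and -0.16 in RT101 colonies (adjusted p = 0.562). The colony change of RT101 minus that of bFGF-JB6 was -0.90 (SE 0.12, adjusted p = 0.000107). On the brighter probe set RT101 minus bFGF-JB6 was -1.13 in colonies and -0.23 in monolayers, with no overlap of arrays. The second probe set gave -0.98 in colonies, without overlap, and -0.18 in monolayers, where the arrays overlapped. Lgals8 most resembled Hmox1, the haem oxygenase gene (r = 0.986), Sco2, a cytochrome oxidase assembly factor (r = 0.985), and Tor1aip2, a torsin-interacting protein gene (r = 0.985).

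**Figure D3:**
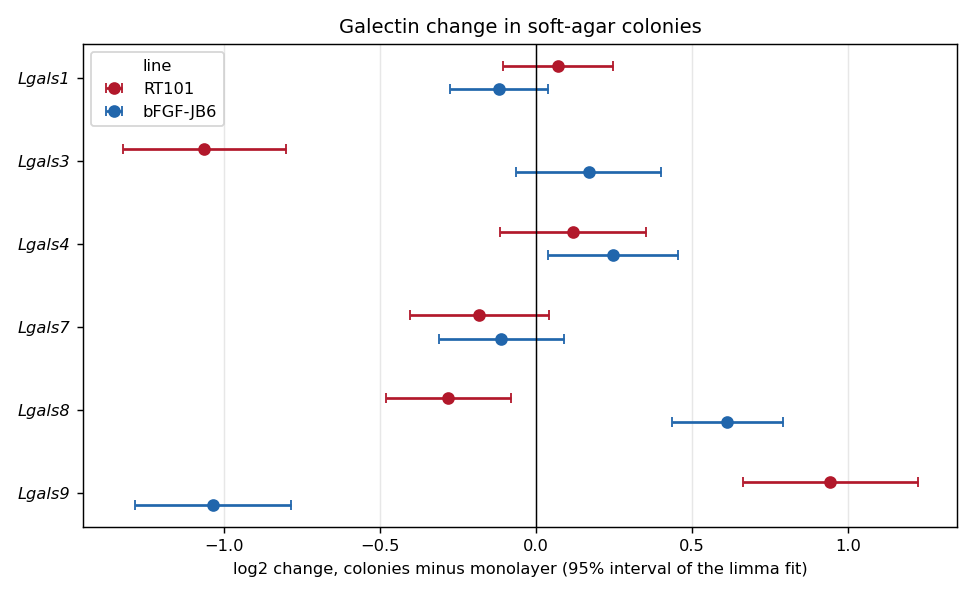
Log2 change of each galectin, colonies minus monolayer, in RT101 (red) and bFGF-JB6 (blue), with the 95% interval of the limma fit. Lgals9 stood at 0.94 in RT101 and -1.03 in bFGF-JB6, Lgals8 at -0.28 and 0.61, and Lgals3 at -1.06 and 0.17; the other 3 galectins lay within 0.25 of 0.

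Lgals1 (chr15:78926725-78930465), the gene of the prototype galectin-1, was near the top of the signal range on every array, where differences can be compressed. It gave 13.58, 13.61 and 13.57 in RT101 colonies, against 13.48 and 13.55 in RT101 monolayers, and 13.65, 13.66 and 13.58 in bFGF-JB6 colonies, against 13.73, 13.77 and 13.75 in bFGF-JB6 monolayers. The colony change was 0.07 in RT101 (95% interval -0.10 to 0.25, limma adjusted p = 0.591) and -0.12 in bFGF-JB6 (-0.28 to 0.04, adjusted p = 0.263), and its second probe set gave 0.01 and -0.14. The sign in RT101 turned with median centring (-0.02) and with cyclic loess (-0.01). With a trended robust variance the bFGF-JB6 change passed (adjusted p = 0.0384). RT101 minus bFGF-JB6 was -0.23 in monolayers, and -0.10 on the second probe set. In colonies it was -0.04 with overlapping arrays, and 0.04 on the second probe set.

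The remaining members lay low in all groups. Lgals4 (chr7:28833122-28841710), known from gut epithelium, ranged from 4.26 to 4.47 in RT101 colonies, 4.21 to 4.22 in RT101 monolayers, 4.25 to 4.44 in bFGF-JB6 colonies and 3.94 to 4.22 in bFGF-JB6 monolayers. Its change was 0.12 in RT101 (adjusted p = 0.475) and 0.25 in bFGF-JB6 (adjusted p = 0.0748; 0.0429 without bFGF-JB6 monolayer replicate 2). Mouse Lgals4 has a close relative, Lgals6, that its probes may also read. Lgals7 (chr7:28863796-28866285), known as a p53-inducible gene of stratified epithelia, ranged from 3.41 to 3.64 in RT101 colonies, 3.68 to 3.73 in RT101 monolayers, 3.34 to 3.62 in bFGF-JB6 colonies and 3.53 to 3.62 in bFGF-JB6 monolayers. Its change was -0.18 in RT101 (adjusted p = 0.221) and -0.11 in bFGF-JB6 (adjusted p = 0.423). Signals of this height are at or close to the lower quartile of the arrays, and neither gene had a colony change that passed in the main fit. The genes most like Lgals1 were Pcmt1 (r = 0.985), Parp14 (0.973) and Aida (0.973), with r falling to 0.907, 0.880 and 0.876 for Krt27, Farp2 and Zfp398 beside Lgals4 and to 0.926, 0.923 and 0.906 for Fbxo22, Tstd2 and D930016D06Rik beside Lgals7.

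Between the lines, in values that carry no test, several galectins were apart. In colonies Lgals3 and Lgals8 were lower in RT101 and Lgals9 higher with no overlap of arrays, where 24.3% of all genes were lower and 26.1% higher in this way. In monolayers Lgals1, Lgals3, Lgals8 and Lgals9 were lower and Lgals7 higher (by 0.13), where 27.7% and 33.4% of all genes were. RT101 monolayers have only 2 arrays, which makes such separation easier, and on the second Lgals8 probe set the monolayer arrays overlapped.

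Other galectin-related genes were followed from a list of 5, of which Lgals2, Lgals12 and Lgalsl were measured. Lgalsl, which encodes a galectin-related protein, fell in RT101 colonies (mean 8.11 against 8.69 in monolayers, log2 change -0.58, limma adjusted p = 0.00284) and rose in bFGF-JB6 colonies (7.56 against 7.02, 0.54, adjusted p = 0.00259), the same directions as Lgals8, and its changes differed between the lines by -1.12 (adjusted p = 0.000238). Its second probe set gave -0.72 in RT101 (adjusted p = 0.00855 over all probe sets) and 0.37 in bFGF-JB6 (adjusted p = 0.114), and without both arrays of raised 3' signal the bFGF-JB6 change was 0.36. Lgals2 gave -0.12 in RT101 (adjusted p = 0.503) and 0.08 in bFGF-JB6 (adjusted p = 0.637). A weaker Lgals2 probe set, of a kind whose probes can match several transcripts, gave 0.63 (adjusted p = 0.0435 over all probe sets) and 1.60 (adjusted p = 6.01e-05), so the probe sets of Lgals2 disagree. Lgals12, an adipocyte galectin, gave 0.03 in RT101 (adjusted p = 0.921) and 0.10 in bFGF-JB6 (adjusted p = 0.663).

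Lgals3bp moved like Lgals9. Its signals were 8.40, 8.42 and 8.28 in RT101 colonies, against 6.73 and 6.87 in RT101 monolayers, and 9.14, 9.09 and 8.72 in bFGF-JB6 colonies, against 9.99, 10.03 and 10.05 in bFGF-JB6 monolayers. It rose in RT101 colonies (log2 change 1.56, SE 0.12, limma adjusted p = 3.10e-07) and fell in bFGF-JB6 colonies (-1.04, SE 0.11, adjusted p = 6.84e-06; -0.92 without both arrays of raised 3' signal). The changes differed by 2.60 (adjusted p = 7.07e-08). RT101 minus bFGF-JB6 was -0.62 in colonies and -3.22 in monolayers.

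Interferon signalling and response genes, among which both genes are known, were counted beside them. Of 15 measured, 9 rose and 1 fell in RT101 colonies (median 0.52, against -0.01 over all genes, of which 17.0% rose and 15.4% fell). In bFGF-JB6 colonies 5 rose and 10 fell (median -0.95, against 0.03 over all genes, of which 14.1% rose and 15.3% fell). Stat2, Irf9, Bst2, Ifit1, Oasl2 and Rtp4 both rose in RT101 colonies and fell in bFGF-JB6 colonies, as Lgals9 and Lgals3bp did. This pattern was held by 353 of 12393 genes (2.85%). The RT101 means of those 6 interferon genes were low, from 3.22 for Oasl2 in monolayers to 6.09 for Bst2 in colonies. Lgals9 averaged 8.79 in RT101 monolayers and 9.73 in RT101 colonies. Rtp4, a receptor chaperone gene, stood at -2.93 in bFGF-JB6 colonies (-0.37 on its other probe set and -1.65 for their mean), the antiviral genes Oasl2 and Oas1a at -2.93 and -2.53. The guanylate-binding protein gene Gbp2 rose in both lines (1.55 in RT101, 0.95 in bFGF-JB6), as did the transcription factor gene Irf1 (0.95 and 0.48), while the GTPase gene Mx1 rose in bFGF-JB6 (0.68). In RT101 colonies Stat2, a transcription factor gene of interferon signalling, rose by 0.88 (adjusted p = 0.0106; 0.0775 without RT101 monolayer replicate 1), and Ifit2 stood at -0.32 (adjusted p = 0.0363), a call lost without any single one of the 5 RT101 arrays (0.0623 to 0.186). With the fit limited to the brighter genes, those not under the median signal, 3 were called in RT101 colonies and 4 in bFGF-JB6 colonies. That filter removed list genes of low signal, among them Gbp2, Mx1, Stat2, Oasl2 and Rtp4, so these are not counts out of 15.

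**Figure D4:**
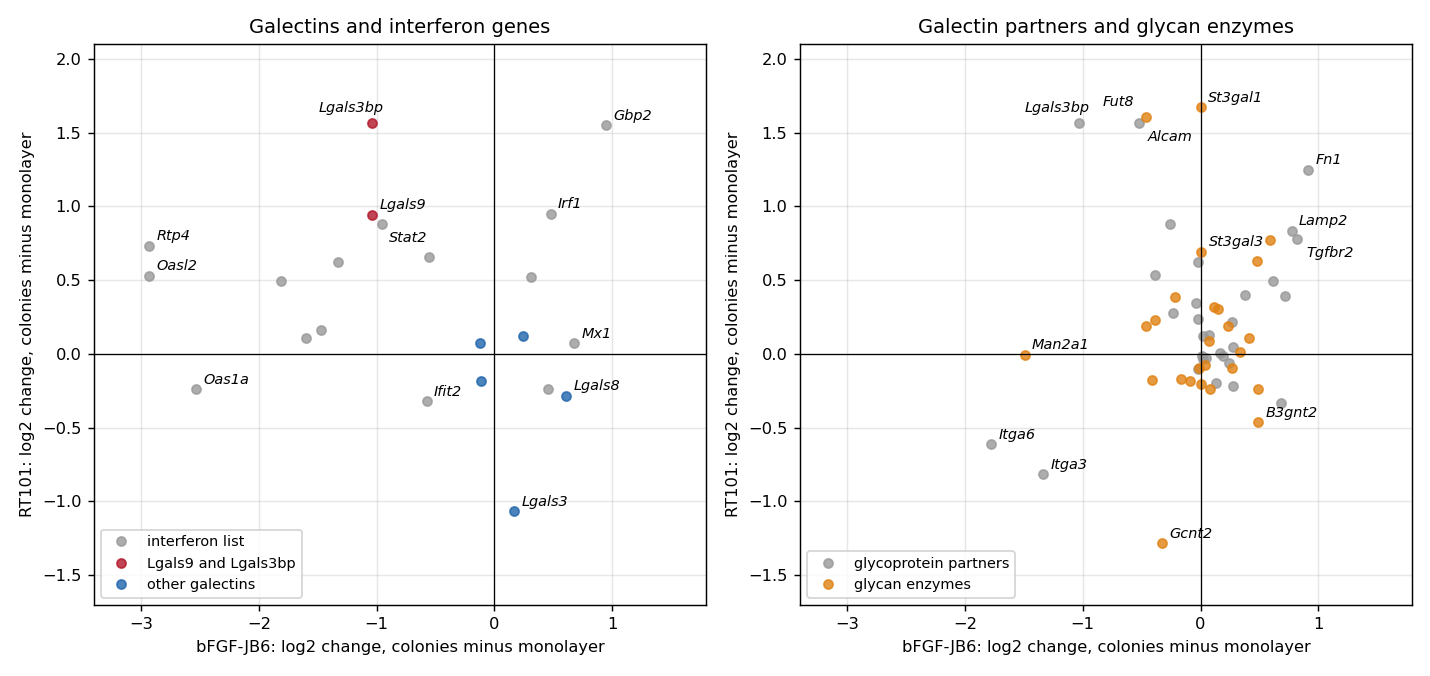
Log2 change in colonies against monolayer in RT101 (vertical axis) and bFGF-JB6 (horizontal axis), 1 point per gene. Left: the 6 galectins, Lgals3bp and 15 interferon genes, with Lgals9 (0.94 and -1.03) and Lgals3bp (1.56 and -1.04) at the upper left beside Stat2. Right: 30 glycoprotein partners of galectins and 26 glycan enzymes, with Fn1 high and Itga3 and Itga6 low in both lines.

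Glycoproteins known to bind galectins were measured for all 30 genes of a list. In RT101 colonies 10 rose and 2 fell (median 0.17) and in bFGF-JB6 colonies 8 rose and 4 fell (median 0.06), where the shares over all genes were those given above for the interferon list. Fibronectin, Fn1, rose in both lines (1.25 in RT101 and 0.92 in bFGF-JB6; difference 0.33, adjusted p = 0.0702). Lamp2, a lysosomal membrane glycoprotein, rose by 0.84 and 0.78, and Tgfbr2, a TGF-beta receptor gene, by 0.78 and 0.82. The integrin chain genes Itga3 and Itga6, which encode laminin receptors, fell in both lines, Itga3 by 0.82 in RT101 and 1.33 in bFGF-JB6, and Itga6 by 0.61 and 1.78. For Itga6 the fall differed between the lines (1.17, adjusted p = 5.04e-06), and for Itga3 the difference did not pass (0.52, adjusted p = 0.0714). The other Itga6 probe set gave -0.71 in RT101 and -1.20 in bFGF-JB6, a narrower gap. Alcam, a cell adhesion molecule gene, rose by 1.56 in RT101 and fell by 0.52 in bFGF-JB6.

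Enzymes of glycan trimming and branching, of lactosamine extension, and of sialic acid and core fucose addition were counted next. Lactosamine is a sugar that galectins bind. In RT101 colonies 4 of 26 rose and 2 fell (median 0.05), beside 32.4% of all genes called, and in bFGF-JB6 colonies 4 rose and 5 fell (median 0.02), beside 29.4%. The sialyltransferase genes St3gal1 (1.67) and St3gal3 (0.69) and the core fucosyltransferase gene Fut8 (1.61) led the increases in RT101, and Gcnt2, which makes branched lactosamine, fell by 1.28 (-0.47 for the mean of its probe sets, of which the 6 others gave -0.75 to -0.0038). In bFGF-JB6 colonies Man2a1, a Golgi mannosidase that acts before branching, fell by 1.49, Mgat2 by 0.46 and Fut8 by 0.46. Mgat5, whose branched product is a known galectin-3 ligand, rose by 0.41 in bFGF-JB6 (adjusted p = 0.00365) and was at 0.10 in RT101 (adjusted p = 0.514). Its difference between the lines did not pass (-0.31, limma adjusted p = 0.121). In RT101 the Mgat5 means, 4.03 in colonies and 3.93 in monolayers, lay below the lower quartile of gene signals (4.05). The lactosamine extension gene B3gnt2 rose by 0.49 in bFGF-JB6, with B4galt3 (0.49). In RT101 B3gnt2 stood at -0.46 (adjusted p = 0.011; 0.0919 without RT101 monolayer replicate 2 and 0.0505 without RT101 colonies replicate 2). Without bFGF-JB6 colonies replicate 3, 11 enzymes were called in RT101 and 14 in bFGF-JB6.

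Of 11 measured partners of galectins at damaged lysosomes, 1 rose and 2 fell in RT101 colonies (median -0.01), beside 32.4% of all genes called, and 4 rose and 2 fell in bFGF-JB6 colonies (median 0.11), beside 29.4%. Trim16, a ubiquitin ligase that works with galectin-3, fell by 1.11 in RT101 (adjusted p = 4.67e-05) and stood at -0.50 in bFGF-JB6 (adjusted p = 0.011; 0.0588 without bFGF-JB6 monolayer replicate 3). Its other probe set gave -0.31 in RT101 and -0.13 in bFGF-JB6, and the means of both were -0.71 and -0.31. The autophagy receptor gene Sqstm1 (0.54), the ESCRT gene Chmp4b (0.52) and Tfeb, a regulator of lysosome genes (0.35), rose in bFGF-JB6. Tax1bp1, another autophagy receptor, stood at 0.41 in RT101 (adjusted p = 0.00309; 0.0671 without RT101 monolayer replicate 1), and at 0.24 with the mean of its probe sets (adjusted p = 0.174). Pdcd6ip, the gene of ALIX, stood at -0.47 in RT101 and -0.26 in bFGF-JB6, but 2 and 1 of its 4 other probe sets had the opposite sign. With the mean of its probe sets neither call held (adjusted p = 0.116 in RT101 and 0.128 in bFGF-JB6). Dropping any of 4 arrays also ended its bFGF-JB6 call, with adjusted p between 0.0594 and 0.112. Without bFGF-JB6 colonies replicate 3, 5 genes of the list were called in RT101 colonies.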

How the data were processed

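Biotin-labelled RNA of 11 samples was read on Affymetrix arrays, 1 array a sample. Groups and replicate numbers came from the titles. The deposited values are log2 signals per probe set, which the authors obtained with RMA according to their processing notes, per the labels, with no version named; scan settings are not given in the sources used here. No scaling or filter was added to them. RMA makes no detection calls, and precision is limited by the number of arrays.

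Of 22690 probe sets, 20380 named a single gene in the platform annotation, 691 named several and 1555 none, and 64 were controls. Each of 12393 genes was read from its probe set with the highest mean signal; the gene numbers of 20351 of the 20380 probe sets matched the RefSeq gene table (GRCm38.p6). All 11 arrays entered 1 fit in limma 3.58.1 (R 4.3.3), with group as the only term and eBayes moderation (7 residual and 6.12 prior degrees of freedom). Calls are Benjamini-Hochberg adjusted p under 0.05 over the 12393 genes; SE is limma's moderated error in log2 units. The fit was tested on simulated data in which 200 of 12393 genes changed. A log2 change of 1 was recovered for 99% of genes in either line's colonies and for 95% for the difference between the lines. A change of 0.5 was recovered for 74% in bFGF-JB6 colonies, 52% in RT101 colonies and 16% for the difference. Small differences between the lines can therefore be missed.

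The members and gene lists were chosen with earlier results of these data known. All galectins were named. From each of 5 pathway lists up to 3 called genes per direction and comparison with the largest change were named, with the 5 genes of highest Pearson r for Lgals3 and 3 for the others. Genes of a list showing opposite changes in the lines, further members of that kind and a few counted genes were named outside this rule, after their values were seen. Summed marker signals were added on the linear scale. Alternatives were a replicate block, other treatment of probe sets, a level filter, cyclic loess, median centring, array weights, a trended robust variance, only the groups compared, a 2-fold minimum and leaving out arrays. Markers of enterocytes (7 measured, 0 up and 0 down in RT101, 0 up and 2 down in bFGF-JB6 colonies), adipocytes (5 measured; 1 and 0, then 0 and 1), keratinocytes (11; 0 and 0, then 2 and 0), fibroblasts (10; 6 and 0, then 4 and 2) and macrophages (12; 2 and 0, then 3 and 1) were counted. Over all genes, 17.0% rose and 15.4% fell in RT101 colonies, and 14.1% rose and 15.3% fell in bFGF-JB6 colonies. Python 3.11.15 and matplotlib 3.10.9 drew the plots.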

Additional observations from a re-analysis of the deposited data

Results flagged for a closer look

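Several colony changes differed between RT101 and bFGF-JB6 cells by the limma test of the difference itself, given as RT101 change minus bFGF-JB6 change on the log2 scale. Among galectins these were Lgals9 (1.98, adjusted p = 1.64e-06) and Lgals8 (-0.90, adjusted p = 0.000107). Among related genes they were Lgals3bp (2.60), Lgalsl (-1.12), Fut8 (2.07, adjusted p = 1.67e-07), Itga6 (1.17), B3gnt2 (-0.95, adjusted p = 0.000777), Trim16 (-0.62, adjusted p = 0.0309), Gbp2 (0.60, adjusted p = 0.033) and Irf1 (0.47, adjusted p = 0.0206). The other Gbp2 probe set gave 0.69 in RT101 and 0.70 in bFGF-JB6, so the Gbp2 difference was not seen on it. Other probe sets of Trim16 (-0.31 in RT101 and -0.13 in bFGF-JB6) and Itga6 (-0.71 and -1.20) showed narrower gaps between the lines. For Lgals3 every colony array lay below the monolayers in RT101 and above them in bFGF-JB6, a difference of -1.23 that was not tested.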

How the results depend on the processing

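Lgals3 in RT101 colonies, Lgals9 in each line and the Lgals9 difference between the lines kept direction and call under the alternatives run, except that Lgals9 in RT101 (0.94) missed the 2-fold minimum. That minimum also ended the calls of Lgals8 in RT101 (-0.28), in bFGF-JB6 (0.61) and for the difference (-0.90), leaving 1 galectin called in each comparison, with 717, 432 and 968 of all genes called in RT101, bFGF-JB6 and for the difference, against 4013, 3642 and 3430. Lgals8 in RT101 colonies was lost with the replicate block by titles (-0.29, adjusted p = 0.0595), with the mean of its probe sets (-0.22) and when RT101 arrays were left out; leaving out 1 array gave -0.32 to -0.25. Lgals4 in bFGF-JB6 gave 0.17 to 0.32 with 1 array left out and passed at 0.32. Lgals1 passed with a trended robust variance in bFGF-JB6 (-0.12) and for the difference (0.19), and its RT101 change turned with median centring (-0.0178) and cyclic loess (-0.0145). For the difference between the lines, Lgals7 turned with cyclic loess (0.00782) and without bFGF-JB6 colonies replicate 3 (its range with 1 array left out was -0.134 to 0.00888), and Lgals4 without both arrays of raised 3' signal (0.00362); none of these values passed, and the causes were not tested. The RT101 difference from bFGF-JB6 for Lgals3 in monolayers was -5.93 with median centring.

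The replicate block changed no other galectin call. Same-numbered arrays of a line did not deviate together: correlations of deviations from the group means were 0.0223, 0.0763 and -0.245 in bFGF-JB6 and -0.253 and -0.15 in RT101 by the titles' numbers. By the letters in the descriptions they were 0.15 and -0.134 in RT101 and the same in bFGF-JB6. Neither was taken to pair samples, and the block by letters changed no call among the results followed. List counts moved by over 1.5 times as follows. Called glycan enzymes in RT101 numbered 10 with array weights and with only the groups compared and 11 without both arrays of raised 3' signal, against 6, and in bFGF-JB6 14 without those arrays, against 9. Partners at damaged lysosomes in RT101 numbered 1 with averaged probe sets, 6 with median centring and 5 with array weights, with only the groups compared and without those arrays, against 3. Other galectin-related genes in bFGF-JB6 numbered 2 with averaged probe sets, against 1. With the 2-fold minimum the counts in RT101 and bFGF-JB6 were 3 and 3 partners (against 12 and 12), 3 and 1 enzymes (6 and 9), 1 and 0 lysosome partners (3 and 6), 1 and 7 interferon genes (10 and 15) and 0 and 0 other galectin-related genes (1 and 1). The filter on level removed Lgals4 and Lgals7, and the difference between lines has no fit with only the groups compared. The lone array left when an RT101 monolayer was dropped was assumed to vary like the other groups.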

Other observations

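Of the gene lists followed here, members that rose in both lines' colonies were Lamp1, Lamp2, Lamc1, Fn1, Tgfbr2 and P4hb among glycoprotein partners, Irf1, Ifit3 and Gbp2 among interferon genes, and Tax1bp1, whose RT101 call was lost with the mean of its probe sets. Lamp1, a lysosomal membrane glycoprotein that carries lactosamine chains, rose by 0.39 in RT101 and 0.72 in bFGF-JB6, Lamc1, a laminin chain gene, by 0.50 and 0.61, and P4hb, a protein disulfide isomerase known as a galectin-9 ligand, by 0.40 and 0.38. No galectin was called in the same direction in both lines, where 10.9% of all genes were. Lgals8 and Lgals9 were called in opposite directions, as were 4.44% of all genes, but the Lgals8 call in RT101 was not stable.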
